A study of Mus musculus with 6 samples.

Results

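TEC is a biotype of the mouse gene annotation. It marks gene models that manual annotators drew from clusters of unspliced cDNA with features of a poly(A) tail, and set aside for experimental follow-up. The members described here were chosen by the deposited gene count table: every row with the biotype TEC and 10 or more counts summed over 6 libraries. These were 1251 of 3160 TEC rows, in a table of 54532 genes. Of the other TEC rows 380 had 1 to 9 counts and 1529 had none. Since the summed count selected them, a model abundant in either group could enter, and the group where a model is higher weighed more in the choice.

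The cells were AML12, a mouse liver cell line that the labels give as wild-type and describe as parenchymal hepatic cells. The 6 libraries formed 2 groups of 3, both after 24 h. PA/OA, which the submitters used to set up their model, was at 400 nM (PA) and 800 nM (OA) as they wrote it, and PP at 250 µg/ml. The series title names Camellia oleifera meal peptides, lipid metabolism and the AMPK, ACC and CPT-1 pathway. Whether the PP cells received PA/OA too is not settled by the labels, which give only PP, or by the design text. Untreated cells were not analysed here. The labels do not state separate cultures for the replicates. The p-values here thus reflect only how these 6 libraries spread, possibly for technical reasons.

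Most RNA of a gene is intron when it is made. Introns are cut out and degraded in the nucleus, while the spliced mRNA receives a poly(A) tail after a short signal and leaves for the cytoplasm. Transcripts that end early inside an intron, antisense transcripts and transcripts running past a gene's end are usually short-lived too, cleared by the nuclear exosome and its adaptors. A read inside a TEC model can come from a transcript of its own or from unspliced RNA of the gene around it, and a count table does not part these sources. The sources used here do not give the strand setting of the counting, so reads of a model and of a gene on the other strand cannot be told apart either.

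Of the members, 1023 overlapped a protein-coding gene, called the host here, and these shared 702 distinct hosts. A total of 777 lay wholly inside a host on its strand, and 739 of these touched no host exon, so that they stood in introns. Another 177 lay inside a host on the opposite strand, 69 overlapped one only in part and 228 overlapped none. More than 1 protein-coding gene lay over 35 members, where the one with most overlap, and then the shortest, was taken as host. Member length ran from 60 to 30942 bases with a median of 2123, and 1249 members were a single exon. The counts summed over 6 libraries had a median of 98 and a maximum of 33361, so that most members were measured with few reads. At the edge of the choice, Gm29541, Gm38059 and A930036K24Rik had 10 counts, and Gm38058, Gm38055 and Gm38109, left out, had 9.

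The ends of these models were searched for the poly(A) signals of finished transcripts. The last 60 bases are given in transcript direction for 12 members that carry the results below, taken from GENCODE release M21 on build GRCm38, whose coordinates equalled those of the table for 1250 members. Capitals mark the last AATAAA or ATTAAA, the commonest poly(A) signals, within the last 50 bases.
Gm37691, inside Lamb3, chr1:193283784-193283843, + strand: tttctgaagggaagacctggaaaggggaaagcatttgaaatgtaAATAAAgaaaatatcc
Gm42549, no host, chr6:28219167-28219226, - strand: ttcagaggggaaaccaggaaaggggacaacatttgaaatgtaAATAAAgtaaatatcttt
Gm45854, opposite Csnk2a2, chr8:95472074-95472133, + strand: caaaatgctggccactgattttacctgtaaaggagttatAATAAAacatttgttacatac
Gm42547, no host, chr6:28211008-28211067, - strand: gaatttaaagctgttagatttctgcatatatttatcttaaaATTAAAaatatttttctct
Gm37819, no host, chr3:49138468-49138527, + strand: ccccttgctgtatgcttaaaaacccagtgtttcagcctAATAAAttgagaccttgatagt
Gm44250, no host, chr6:5216258-5216317, - strand: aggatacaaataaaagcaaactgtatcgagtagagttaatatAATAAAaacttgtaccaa
Gm45457, inside Sorbs2, chr8:45782257-45782316, + strand: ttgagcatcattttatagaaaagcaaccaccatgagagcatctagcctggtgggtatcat
Gm37123, inside Pik3ca, chr3:32455698-32455757, + strand: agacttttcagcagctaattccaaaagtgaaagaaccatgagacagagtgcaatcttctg
C030015A19Rik, inside Zxdc, chr6:90389298-90389357, + strand: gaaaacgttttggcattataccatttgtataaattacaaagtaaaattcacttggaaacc
Gm42972, inside Ank2, chr3:127266673-127266732, - strand: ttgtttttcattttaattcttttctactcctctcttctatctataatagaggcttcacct
Gm48766, inside Fars2, chr13:36256861-36256920, + strand: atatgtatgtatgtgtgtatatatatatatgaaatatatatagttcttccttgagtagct
Gm43775, inside Rbm47, chr5:66069501-66069560, - strand: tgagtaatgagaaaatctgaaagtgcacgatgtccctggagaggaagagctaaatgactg

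Of the 12, the first 6 hold a signal and the other 6 hold none. The ends of Gm37691 and Gm42549 are nearly alike around the signal, and whether they lie in a repeat was not checked. Over 1250 members with a sequence, 378 (30.2%) had AATAAA or ATTAAA in the last 50 bases of the transcript strand, and 8.56% had the reverse complement of either. The share was 28.1% among TEC models below the count minimum and 50.2% among 58691 protein-coding transcripts of the same annotation, in windows of the same length. It differed with position: 20.2% of members inside a host on the same strand, 44.6% of those on the opposite strand, 55.1% of partly overlapping members and 45.8% of members with no host had the signal. The words are a description of the letters and not a measured transcript end.

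Some members shared a word that recurs across the genome. The commonest 14-base word over their whole sequences, once low-complexity words were set aside, was TGTAGACCAGGCTG, which resembles part of the B1 repeat of rodents. No repeat annotation was used here to check this. It or its reverse complement stood in 159 of 1250 members (12.7%, median length 2709 bases) and in 4.98% of the TEC models below the minimum. The word was picked from the members' own sequences, so a higher share among them was partly set by that choice. The sources used here do not say how reads with several matches were treated. The median log2 fold change of PP against PA/OA was -2.04 for the 128 tested members with the word and -2.28 for the 734 without it. The order differed by class. On the host strand the medians were -1.83 with the word (94 tested) and -2.53 without it. On the opposite strand they were -2.57 (13 tested) and -1.88, for partly overlapping members -2.53 (7 tested) and -1.96, and without a host -2.59 (14 tested) and -2.02.

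Members were lower in the cells labelled PP, in every positional class. The share of all library counts that fell in members was 0.256%, 0.253% and 0.251% in the PA/OA libraries and 0.123%, 0.110% and 0.112% in the PP libraries. The 3 libraries of each group lay close together and the groups did not overlap. The means were 0.253% ± 0.00282 and 0.115% ± 0.00679 (SD, n = 3 each), a ratio of 2.21 (exact permutation test, two-sided, p = 0.1, the smallest this design allows). Same-strand members held 0.179% ± 0.00247 in PA/OA and 0.0824% ± 0.00516 in PP, and opposite-strand members 0.0282% ± 0.000268 and 0.0133% ± 0.000742. Members without a host held 0.0372% ± 0.000599 and 0.0157% ± 0.00118, and partly overlapping members 0.00927% ± 0.000221 and 0.00349% ± 2.12e-05 (n = 3 for each). The most abundant member, AC160637.1, went the other way, and without it the means were 0.242% and 0.0877%. In bulk RNA, fewer cells that make a transcript and less of it per cell cannot be told apart.

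**Figure D1:**
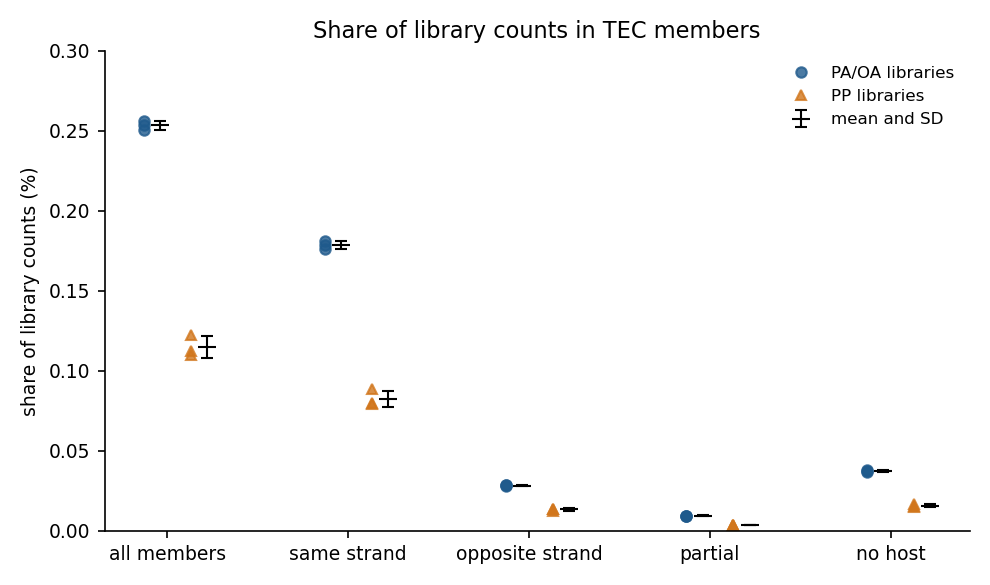
Share of all library counts (vertical axis, %) in TEC members, for all members and for the 4 positional classes (horizontal axis). Circles are PA/OA libraries, triangles PP libraries, and bars the mean and SD over 3 libraries; in every class each PA/OA library lies above each PP library, with means of 0.253% and 0.115% for all members.

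The comparison per model asks which members differed between the groups and how this stood beside their hosts. Counts of all genes were tested together with edgeR's quasi-likelihood test and Benjamini-Hochberg adjustment at 0.05, with counts scaled by library size and TMM (CPM). Of 863 members that passed the filter on low counts, 642 were lower in PP, 57 were higher and 164 did not pass. Over all 15718 genes tested, 39.9% were lower and 35.1% higher, against 74.4% and 6.605% of the tested members. Their median log2 fold change was -2.21, against -0.09 over all genes, and 477 fell at least 4-fold while 39 rose at least 2-fold.

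The filter bears on these shares. Of the tested members 586 reached its minimum of 0.369 CPM in all PA/OA libraries and not in all PP libraries, so they entered through their PA/OA level, and 12 entered through their PP level. Of the 246 that reached it in all 6 libraries, 115 were lower and 49 higher. Over all genes tested, whether or not they met this condition, 39.9% were lower and 35.1% higher. The shares among all genes that met it are not given here. Over all 1251 members without any filter, 1097 had the lower mean in PP and 154 the higher, with a median log2 fold change of -2.28. A total of 180 members had no count in any PP library and 4 none in any PA/OA library. In this table weakly expressed genes of other kinds were lower in PP as well. Among genes with an average log2 CPM from 0 to 1, 78.1% of 242 members and 46.0% of 587 protein-coding genes were lower, with medians of -2.19 and -0.68. After each library's trend with abundance was removed, 406 members were lower and 107 higher, with a median of -1.02. With library size in place of TMM the median of all genes was -0.52, and 32 members were higher.

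Other classes of noncoding genes were lower too. The sense_intronic genes, another class placed in introns, had a median log2 fold change of -1.86 with 92 of 127 tested lower, antisense genes -1.40 with 361 of 626, and lincRNA genes -1.10 with 257 of 459. Processed pseudogenes, copies of spliced mRNA, had a median of 0.19, and protein-coding genes 0.04. The share of library counts in antisense genes went from 0.201% ± 0.00417 in PA/OA to 0.0889% ± 0.00301 in PP (SD, n = 3). The ratio was 2.26, beside 2.21 for members, or 2.77 for members without AC160637.1. The share in sense_intronic genes went from 0.0316% ± 0.00129 to 0.0125% ± 0.000818, a ratio of 2.53. That in lincRNA genes went from 2.18% ± 0.119 to 0.728% ± 0.0389, a ratio of 3.00. Whether TEC members differ from sense_intronic genes was not tested.

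Per kilobase, the median member inside a host on its strand had 0.582 CPM in PA/OA and 0.0967 in PP, and the median opposite-strand member 0.519 and 0.102. Members with no host had medians of 0.240 and 0.0550 CPM per kilobase, and those 99 more than 5 kb from any protein-coding gene 0.267 and 0.0586. Of the 602 tested members on the host strand 462 were lower and 36 higher, with a median log2 fold change of -2.38. Of 118 on the opposite strand 76 were lower and 10 higher, with a median of -1.90. Of 31 partly overlapping members 23 were lower and 1 higher, and of 112 without a host 81 were lower and 10 higher, with medians of -2.001 and -2.06. These medians did not change, to 2 decimals, when members with no PP count were given a floor value, 3 counts in the group as a whole. Such members stood below their class median either way, so this choice could not move it. Members far from protein-coding genes were lower too: of 45 tested members more than 5 kb from any, 38 were lower and 4 higher. Noncoding genes could still lie over these. Of 77 tested members with no gene of any kind over them, 50 were lower and 9 higher, with a median of -1.82.

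Overlap with exons went with smaller differences. Opposite-strand members over a host exon had a median log2 fold change of -0.91 (44 tested), and those clear of host exons -2.38 (74 tested). On the host strand the medians were -1.20 for 28 tested members over a host exon and -2.39 for 574 clear of them. The median log2 fold change was also further below 0 in longer members: -0.94 under 1 kb, -2.02 from 1 to 2 kb, -2.31 from 2 to 3 kb and -2.67 above 3 kb. The share lower was 48.2% of 83 tested in the shortest bin and 87.9% of 240 in the longest. The filter removed 101 of 184 members under 1 kb, and without it the medians over all members were -1.85, -2.17, -2.30 and -2.64, a smaller spread over length. None of these contrasts between classes of members was tested.

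Same-strand members near the 3′ end of the host differed least. With the host span cut into 3 equal parts, among same-strand members in the part nearest its 5′ end, 208 of 241 tested were lower and 6 higher, with a median log2 fold change of -2.84. Between the ends of the host 177 of 220 were lower and 8 higher, with a median of -2.45. In the part nearest the 3′ end 77 of 141 were lower and 22 higher, with a median of -0.97. Taking 1 member per host, the medians were -2.67, -2.27 and -0.83, and after removal of the trend with abundance they were -1.76, -1.17 and -0.11. With 5 equal parts the medians were -2.80, -2.91, -2.42, -1.52 and -1.004 from the 5′ end. Over these parts the median average log2 CPM ran from 0.01 to 0.25 and the median length from 2045 to 2476 bases. The contrast by position was not tested, nor was the part of abundance or length in it. The sense_intronic genes gave -2.60, -1.94, -2.25, -1.22 and -1.07 over the same parts, with 18 to 33 genes in each.

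**Figure D2:**
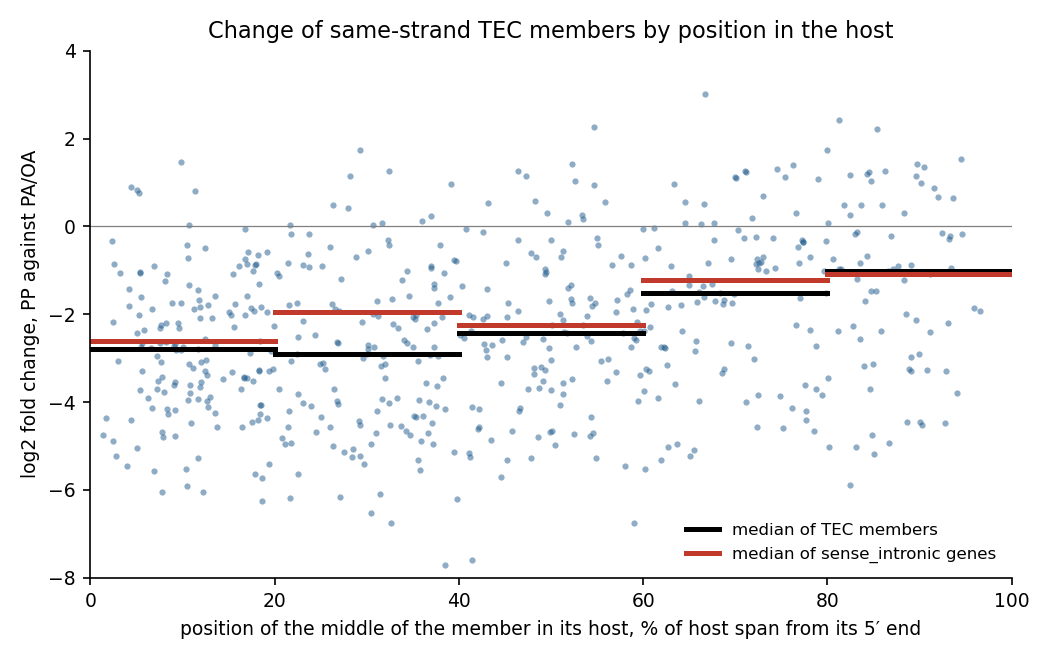
Log2 fold change of PP against PA/OA (vertical axis) for 602 tested TEC members inside a host on its strand, by the position of the member's middle along the host (horizontal axis, % of host span from its 5′ end). Points are members, with those lacking PP counts at the floor of 3 counts; black and red bars are medians over 5 equal parts of the host span for TEC members and sense_intronic genes, and the black bars move from -2.80 nearest the 5′ end to -1.004 nearest the 3′ end.

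Most same-strand members were lower whichever way the host moved. Where the host was higher in PP, 205 of 291 tested same-strand members were lower and 26 higher, with a median log2 fold change of -1.83. Where the host was lower, 186 of 218 were lower and 3 higher, with a median of -3.06. Where the host did not pass the test, 69 of 90 were lower and 7 higher, with a median of -2.57. Across 599 pairs on 437 hosts the log2 fold changes of member and host had a Pearson r of 0.32 and a Spearman rho of 0.29. Across 117 opposite-strand pairs r was 0.20. Both are descriptions over pairs that share libraries and, in part, hosts, and how reads over both were assigned is not known here.

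**Figure D3:**
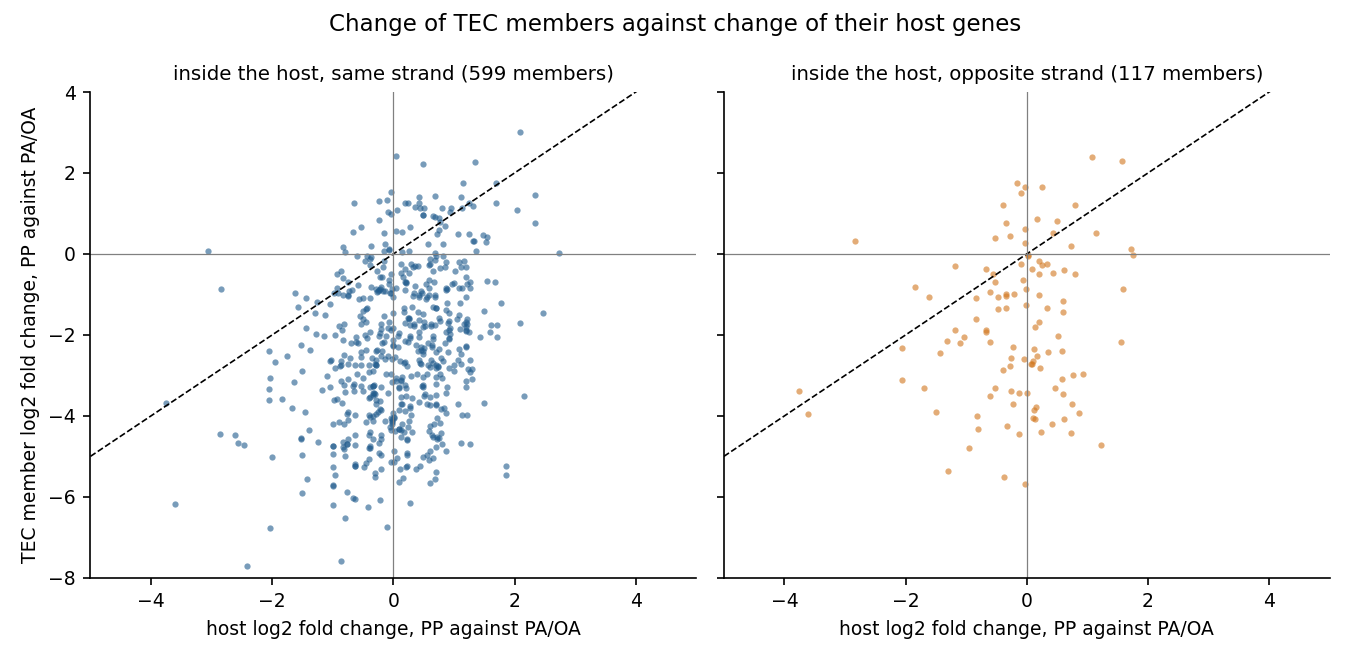
Log2 fold change of PP against PA/OA of TEC members (vertical axis) against that of their host genes (horizontal axis), for 599 same-strand members on the left and 117 opposite-strand members on the right. Members lacking PP counts stand at the floor of 3 counts. The dashed line marks equal change; most points lie below it on both sides of a host change of 0.

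The log ratio of member to host was tested with limma over all 2321 pairs of a gene that is not protein-coding and its host, with Benjamini-Hochberg adjustment. Of 746 member pairs 555 (74.4%) had a lower ratio in PP and 39 (5.23%) a higher one. Of all pairs, member pairs included, 62% and 9.22% did. Of 124 sense_intronic pairs 79.0% were lower and 4.03% higher, with a median difference of -2.27. Of 574 antisense pairs 63.1% were lower and 7.14% higher, and of 112 lincRNA pairs 61.6% and 7.14%. Of 387 processed pseudogene pairs 47.5% were lower and 16.5% higher. The median difference in log2 ratio was -2.46 over member pairs. On the host strand 469 of 599 pairs were lower and 23 higher (median -2.68), and on the opposite strand 66 of 117 were lower and 15 higher (median -1.49). In 231 pairs the member was called lower and the host higher by edgeR, and in 5 the reverse held. In 186 pairs both were lower and the member fell further than its host. Among 554 same-strand members clear of exons, the read density per kilobase was in the median 10.2% of the host's density in PA/OA and 1.56% in PP. Host density was taken over the length the table gives for the host. Both genes of a pair had to pass the low-count filter, which bears on these ratios and densities. Of the tested members, 586 reached its minimum in all PA/OA libraries and not in all PP libraries, and 12 the other way. Ratios and densities of members that reached it in all 6 libraries are not given here.

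Several long genes held many members, most of which fell. Ank2, which codes for an ankyrin that anchors membrane proteins to the cytoskeleton, held 12 same-strand members. Their summed counts were 339, 403 and 421 in the PA/OA libraries and 8, 2 and 2 in PP. All 8 that were tested fell, with log2 fold changes of -4.21 or lower, while Ank2 itself fell by 0.996 ± 0.06 (SE; adjusted p = 1.42e-12, edgeR). The members thus nearly vanished from the PP libraries where the host mRNA kept part of its level, at 112 CPM in PA/OA and 56.1 in PP.

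Camk2d, a subunit of calcium/calmodulin-dependent kinase II, was itself higher in PP, by 1.20 ± 0.06 (log2, SE; adjusted p = 2.73e-14, edgeR). Its 7 members had summed counts of 675, 945 and 748 in PA/OA and 257, 342 and 302 in PP, and all 7 fell, with log2 fold changes from -3.28 to -0.33. Cers6, a ceramide synthase, rose by 0.50 with all 6 of its members lower, and Med13l, a Mediator subunit, rose by 0.23 with all 5 lower. Apbb2, a binding partner of amyloid precursor protein, and the transcription factor gene Tcf12 each held 7 members, all lower, and fell by 0.63 and 0.20. Of the 15 hosts with 5 or more members, none had all its tested members higher. Cacnb2, a calcium channel subunit, and Vps13b, a lipid transfer protein of the Golgi, each had 1 member higher and 3 lower.

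**Figure D4:**
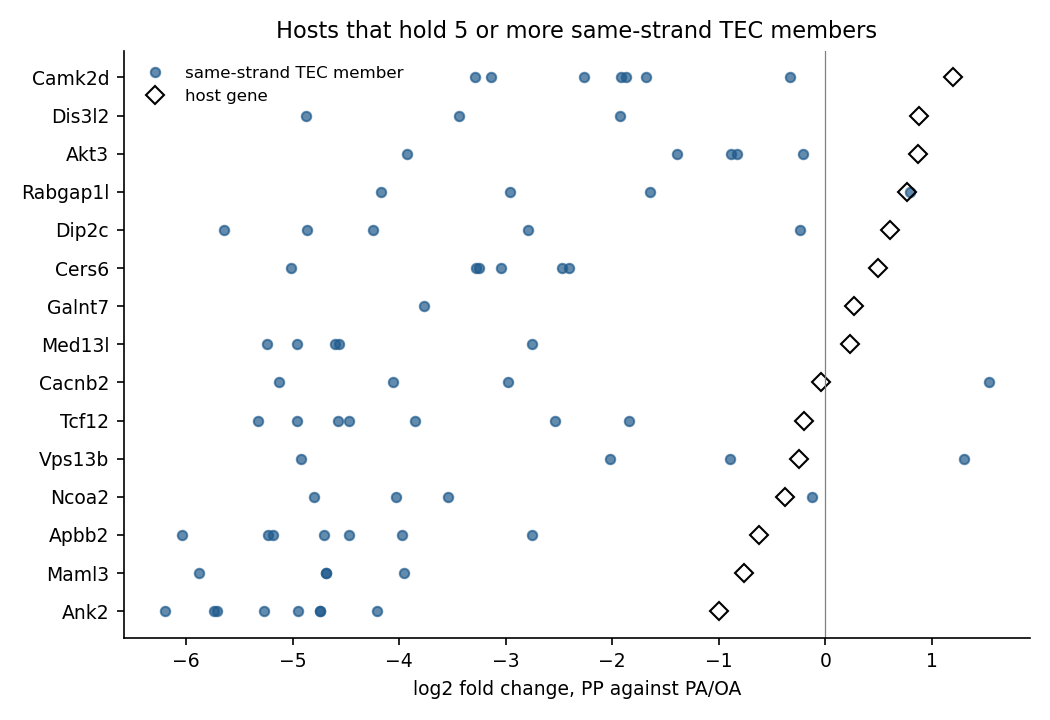
Log2 fold change of PP against PA/OA (horizontal axis) for the 15 hosts holding 5 or more same-strand TEC members (vertical axis, ordered by the change of the host). Circles are tested members, with those lacking PP counts at the floor of 3 counts, and diamonds are hosts; members lie left of their host in all but a few cases, such as 1 member each of Cacnb2 and Vps13b.

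The rule for the largest falls ranked members by the fitted fold change and so took those with no PP count. For these only a lower bound on the fold can be given, against a floor of 3 counts in the PP libraries together, and their order is not a ranking of true size. Phxr4, inside Maml2, a coactivator of Notch signalling, had 125, 140 and 104 counts in PA/OA and 0 in each PP library, at least 108-fold lower. Maml2 itself fell by 2.03 ± 0.11 (log2, SE). Gm47188, which has no host, had 99, 85 and 87 counts in PA/OA and was at least 79.7-fold lower. Neither was detectable at this depth in any PP library.

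Gm42972 and Gm42973, both in Ank2, were at least 73.5-fold and 52.3-fold lower, from 86, 68 and 96 and from 36, 74 and 68 counts in PA/OA. Gm48766, in Fars2, the mitochondrial phenylalanyl-tRNA synthetase gene, had 50, 67 and 51 counts and was at least 49.4-fold lower. Its host did not pass the test (log2 fold change 0.10 ± 0.10, SE; adjusted p = 0.380, edgeR). The ends of Gm42972 and Gm48766 printed above hold no poly(A) signal. Members with a few PP counts stood outside that rule, among them 2 named after their values were seen. Gm19514, in Adam12, a metalloproteinase gene, had 215, 285 and 284 counts in PA/OA and 2, 0 and 1 in PP. Gm37589, in Mbnl1, a splicing regulator gene, had 76, 104 and 112 counts in PA/OA and 0, 1 and 0 in PP.

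Some members fell where the host rose. Gm43775 lies in an intron of Rbm47, an RNA-binding protein gene that rose by 1.86 ± 0.05 (log2, SE; adjusted p = 9.87e-18, edgeR). Gm43775 itself had 83, 70 and 75 counts in PA/OA and 2, 3 and 0 in PP, a log2 fold change of -5.23 ± 0.53 (adjusted p = 1.12e-08). A second member in Rbm47, Gm43323, which overlaps a host exon by 276 bases, went from 17, 29 and 21 counts to 1, 0 and 0. The pair stood on the same strand of the same host and moved against it together.

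Gm47657, in Elmo1, which acts in engulfment and cell migration, had 41, 37 and 33 counts in PA/OA and none in PP, at least 32.6-fold lower, while Elmo1 rose by 0.65 ± 0.07 (log2, SE). Gm42436, in Larp1b, had 92, 135 and 104 counts in PA/OA and 0, 0 and 6 in PP, so that 1 PP library held all of its PP counts. Exons of another gene cover 575 bases of Gm42436, and Larp1b rose by only 0.15 ± 0.07 (log2, SE; adjusted p = 0.0450, edgeR).

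Members that rose were fewer. Gm37123 lies in an intron of Pik3ca, the catalytic subunit gene of a PI3-kinase, 81.2% of the way along it, at chr3:32454587-32455757. It had 2.65, 3.16 and 2.89 CPM in PA/OA and 16.7, 15.2 and 14.6 CPM in PP, with no overlap between the groups. The rise was 2.41 ± 0.15 (log2, SE; adjusted p = 3.06e-12, edgeR), while Pik3ca did not pass the test (0.04 ± 0.07). Its density went from 32.5% to 169% of the host's, so that in PP it exceeded the density of Pik3ca itself. The end printed above shows no poly(A) signal.

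C030015A19Rik, in an intron of the transcription regulator gene Zxdc, had 3.99, 4.495 and 4.07 CPM in PA/OA and 19.8, 19.5 and 21.2 in PP. It rose by 2.27 ± 0.13 and Zxdc by 1.34 ± 0.07 (log2, SE), and the ratio rose by 0.92 ± 0.15 (adjusted p = 7.94e-05, limma). Gm37289, in an intron of the deubiquitinase gene Mindy3, went from 0.829, 0.599 and 0.786 CPM to 4.04, 3.44 and 2.87, a rise of 2.22 ± 0.30. All 3 of these rising members lay past the middle of the host, at 81.2%, 54.7% and 85.4% of its span.

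Gm43292, on the strand opposite Eif2ak3, the gene of the stress kinase PERK, had 0.701, 1.27 and 0.929 CPM in PA/OA and 4.92, 5.18 and 4.18 in PP. It rose by 2.30 ± 0.27 and Eif2ak3 by 1.58 ± 0.07 (log2, SE), and 485 of its bases lie over host exons. A430103D13Rik, which has no host and lies 2401 bases past the end of Zbtb25 on the same strand, rose by 2.26 ± 0.40, while Zbtb25, a zinc-finger gene, rose by 1.165. Its counts were 6, 20 and 17 in PA/OA and 64, 60 and 59 in PP.

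Among members called higher with a host called lower was 9130002K18Rik, in an intron of Vps13b. It had 2.74, 2.70 and 3.07 CPM in PA/OA and 6.23, 6.70 and 8.005 in PP, a rise of 1.30 ± 0.19, while Vps13b fell by 0.24 ± 0.05 (log2, SE; adjusted p = 2.49e-06 and 0.000235, edgeR). Gm37349, in Ints7, a subunit of Integrator, had 9, 13 and 10 counts in PA/OA and 27, 11 and 30 in PP, so its second PP library lay among the PA/OA values. Its call (adjusted p = 0.0299, edgeR) was lost without any one of 5 libraries, PP replicate 2 being the exception, at log2 fold changes of 1.07 to 1.43.

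On the opposite strand, Gm43737 at Mtx1, a mitochondrial import gene, rose by 1.21 ± 0.17 while Mtx1 fell by 0.40 ± 0.11 (log2, SE). It had 3.99, 3.896 and 4.36 CPM in PA/OA and 8.25, 9.12 and 10.8 in PP, with 759 bases over host exons. Gm37416, only 318 bases long and opposite Malrd1, had 9.28, 10.4 and 11.4 CPM in PA/OA and 13.6, 11.3 and 14.1 in PP, and the groups overlapped. Its call (log2 fold change 0.33 ± 0.13, adjusted p = 0.0272, edgeR) was lost without PA/OA replicate 1, PP replicate 1 or PP replicate 3, at 0.26, 0.32 and 0.29, and with library size only the value was -0.10. Malrd1 was near the limit of detection, at 0.931 CPM in PA/OA and 0.129 in PP.

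The most abundant member followed its host. AC160637.1 lies inside Pkm, the pyruvate kinase gene of glycolysis, at chr9:59672814-59676700, and 767 of its 3887 bases are host exon. It had 100.5, 94.5 and 87.9 CPM in PA/OA and 329, 326 and 294 in PP. It rose by 1.75 ± 0.06 and Pkm by 1.70 ± 0.05 (log2, SE), and their ratio did not pass the test (0.05 ± 0.07, adjusted p = 0.508, limma). AC154232.2, which starts where Golgb1 starts and covers 499 bases of its exons, likewise rose by 0.90 ± 0.11 with Golgb1, the gene of the Golgi protein giantin, at 0.69 ± 0.05. Its ratio did not pass either (0.21 ± 0.12, adjusted p = 0.121, limma). Both members overlap host exons, and the sources used here do not say how reads over a member and a host exon were assigned.

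Gm45457, in an intron of the cytoskeletal adaptor gene Sorbs2, had 49.99, 48.3 and 49.5 CPM in PA/OA and 21.5, 13.2 and 19.3 in PP. It fell by 1.46 ± 0.12 and Sorbs2 by 1.30 ± 0.05 (log2, SE). Its density was 55.1% of the host's in PA/OA and 49.4% in PP, and the ratio did not pass the test (-0.20 ± 0.12, adjusted p = 0.147, limma). This density relative to the host was above the median of 10.2% and 1.56% over same-strand members clear of exons.

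Gm49502, in an intron of Srebf2, the transcription factor gene of sterol synthesis, had 24.6, 21.5 and 24.3 CPM in PA/OA and 27.5, 22.9 and 23.9 in PP, with overlapping groups. It did not pass the test (0.08 ± 0.10, adjusted p = 0.480, edgeR), and with library size only its value was -0.36. Srebf2 rose by 1.36 ± 0.05 (log2, SE), so that the ratio fell by 1.29 ± 0.09 (adjusted p = 1.69e-07, limma). Gm37691, in Lamb3, a laminin subunit gene, had 14.9, 18.9 and 19.2 CPM in PA/OA and 14.7, 14.9 and 14.8 in PP. It narrowly missed the threshold (-0.25 ± 0.11, adjusted p = 0.0517, edgeR), and it passed without PA/OA replicate 1, at -0.36, and with library size only, at -0.69. Gm36989 did not pass either, at 9.498 ± 2.29 CPM in PA/OA and 10.04 ± 0.740 in PP (SD, n = 3), with a log2 fold change of 0.08 that was -0.36 with library size only. Its host Gm28285 had fewer reads, at 1.50 CPM in PA/OA and 0.171 in PP, and was called lower (-3.06 ± 0.53, adjusted p = 2.09e-05, edgeR). The ratio of Gm36989 to this host rose by 3.27 ± 0.68 (adjusted p = 0.000657, limma), and its density was 371% of the host's in PA/OA and 3431% in PP.

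Of the abundant opposite-strand members, Gm43980, against the splicing regulator gene Tra2a, had 15.1, 18.4 and 12.9 CPM in PA/OA and 37.7, 33.6 and 37.2 in PP, and touches no host exon. It rose by 1.22 ± 0.11 and Tra2a by 0.79 ± 0.05 (log2, SE). Gm45854, against Csnk2a2, a catalytic subunit of casein kinase 2, had 10.1, 7.69 and 9.25 CPM in PA/OA and 4.92, 3.98 and 3.27 in PP. It fell by 1.158 ± 0.18 while Csnk2a2 rose by 0.59 ± 0.05 (log2, SE), and its end holds AATAAA. Gm43361, against Atp2a2, the calcium pump of the endoplasmic reticulum, fell by 0.98 ± 0.20 with Atp2a2 at -0.22 ± 0.05. Of these 3, the first and the last moved the same way as the gene they face and Gm45854 the opposite way.

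**Figure D5:**
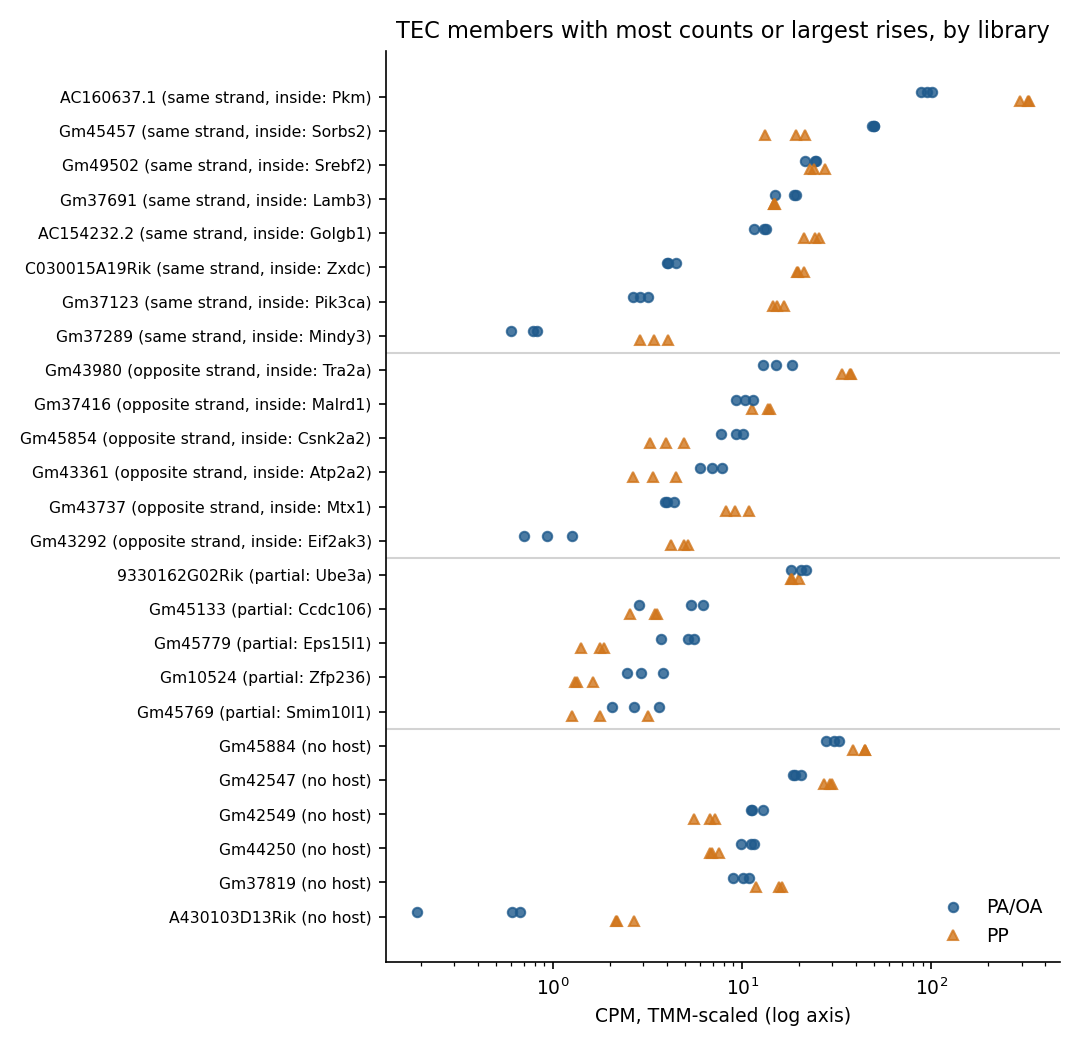
CPM per library (horizontal axis, log scale, TMM-scaled) of 25 TEC members, namely the most abundant of each positional class and the largest rises (vertical axis, with class and host). Circles are PA/OA libraries and triangles PP libraries; AC160637.1 in Pkm lies highest, at 87.9 to 100.5 CPM in PA/OA and 294 to 329 in PP.

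Partly overlapping members cross an end of a host. The longest member, 9330162G02Rik, is 30942 bases long, and part of it runs against Ube3a, an imprinted ubiquitin ligase gene. It did not pass the test (-0.10 ± 0.10, adjusted p = 0.386, edgeR), though it did with library size only, at -0.53. It had 20.2 ± 1.83 CPM in PA/OA and 18.8 ± 1.02 in PP (SD, n = 3). Ube3a rose by 0.20 ± 0.07 (log2, SE; adjusted p = 0.0198, edgeR), and the ratio fell by 0.29 ± 0.12 (adjusted p = 0.0476, limma). Gm45779 overlaps the start of Eps15l1, an endocytosis gene, on the same strand. It had 5.58, 5.16 and 3.72 CPM in PA/OA and 1.77, 1.41 and 1.86 in PP, a fall of 1.52 ± 0.24, while Eps15l1 rose by 0.66 ± 0.07 (log2, SE). Gm10524, against Zfp236, fell by 1.10 ± 0.28, a call lost after removal of the trend with abundance, at -0.54. Gm45133, at Ccdc106, was called lower at -0.60 ± 0.25 (adjusted p = 0.0376, edgeR), and the call was lost without PA/OA replicate 1, PA/OA replicate 3 or PP replicate 3, at -0.51, -0.37 and -0.44. Gm45769, at Smim10l1, did not pass (-0.42 ± 0.31), and it passed without PP replicate 3, at -0.84.

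The most abundant members without a host were split. Gm45884, 2903 bases past the end of Pura, a nucleic acid-binding protein gene, on its strand, had 30.5, 32.5 and 27.9 CPM in PA/OA and 44.8, 38.3 and 44.6 in PP, a rise of 0.49 ± 0.09 (log2, SE), while Pura did not pass at 0.08. Gm42547 and Gm42549 both lie past the end of Zfp800, a zinc-finger gene, on its strand, at 25122 and 13757 bases, and moved in opposite directions. Gm42547, the farther one, had 18.6, 20.5 and 18.9 CPM in PA/OA and 29.8, 29.3 and 27.1 in PP, a rise of 0.57 ± 0.09. Gm42549 had 11.2, 12.95 and 11.1 CPM in PA/OA and 6.73, 5.57 and 7.17 in PP, a fall of 0.86 ± 0.15, and Zfp800 rose by 0.58. Both ends printed above hold a poly(A) signal.

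Gm44250, 366 bases past the end of Pon3, a paraoxonase gene, fell by 0.62 ± 0.14, and Gm37819, 604769 bases from the nearest protein-coding gene, rose by 0.54 ± 0.14 (log2, SE). With library size only, the rises of Gm45884, Gm42547 and Gm37819 did not pass, at 0.06, 0.14 and 0.11. Presence of a signal did not separate the directions: of tested members with AATAAA or ATTAAA near the end 173 of 237 were lower and 13 higher, and of those without, 469 of 625 were lower and 43 higher.

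Genes that clear or end nuclear transcripts were mixed in direction. Of 17 tested genes of nuclear RNA decay, 7 rose and 8 fell, and the median log2 fold change was -0.13, where 35.1% of all genes were higher and 39.9% lower. The 3 genes of smallest p (edgeR) all rose. Papd5, a poly(A) polymerase that marks RNA for decay, rose by 1.26 ± 0.06 and Mphosph6, an exosome cofactor, by 1.52 ± 0.08 (log2, SE). Rbm7, of the nuclear exosome targeting complex, rose by 1.15 ± 0.07. The Exosc genes of the exosome mostly fell, among them Exosc2 at -1.95 ± 0.11, Exosc1 at -1.24 ± 0.07 and Exosc5 at -1.24 ± 0.10. Exosc8 rose, at 0.71 ± 0.08, and Exosc3 did not pass. Of 20 cleavage and polyadenylation genes, 7 rose and 7 fell (median 0.04). The scaffold gene Sympk rose by 1.47 ± 0.06 and Fip1l1 by 0.70 ± 0.06, while Cstf3 fell by 1.15 ± 0.09. Of 14 genes of Integrator, the complex that ends short noncoding transcripts, 3 rose and 10 fell (median -0.47). Ints1, Ints2 and Ints14 fell by 1.32 ± 0.07, 1.19 ± 0.06 and 1.17 ± 0.09.

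Total counts ran from 24113169 to 32560589 per library. Of 16 hepatocyte markers 11 were tested, with summed levels of 3058 to 3272 CPM in PA/OA and 3772 to 4125 in PP, mostly from keratins, while Apoa2 and Tat had no count. The 4 biliary markers, which this line also expressed, summed to 2337 to 2473 CPM in PA/OA and 3833 to 4252 in PP, with Epcam at 0. The 6 macrophage markers summed to 3.13 to 3.79 CPM and 26.6 to 29.5 CPM, the latter through Cd68, with Adgre1 and Clec4f at 0. The 9 fibroblast markers summed to 5.33 to 7.04 and 2.90 to 6.59 CPM, and the 5 endothelial markers to 0.542 to 1.50 and 0.364 to 1.01 CPM. The part of library depth, RNA quality or cell makeup in the lower counts of members was not tested.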

How the data were processed

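Sequencing of AML12 RNA gave 6 libraries, 3 for PA/OA and 3 for PP. The deposited values are raw counts for each gene, listed with biotype and coordinates and made with featureCounts on build mm10 per the submitters' processing notes, which also name DESeq2 1.16.1. Not given in the sources used here: mRNA selection, strand setting, aligner. Groups came from the treatment labels, and total counts were 24113169 to 32560589 per library. Members, lists and classes were chosen with earlier results of these data known.

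Python 3.11.15 assigned each TEC row to the protein-coding gene over it by the table's coordinates, and GENCODE M21 gave exons and sequences. In R 4.3.3, edgeR 4.0.16 tested all genes kept by filterByExpr (TMM, glmQLFit, glmQLFTest, Benjamini-Hochberg). limma 3.58.1 tested the log2 ratio of member to host on voom log2 values, with weights combined from both genes. A ratio test on log2 CPM with a prior count of 2 was run as an alternative. Log2 fold changes are PP minus PA/OA. Shares were compared with an exact permutation test. Alternatives were other scalings, filters, the tools DESeq2 1.42.0 and limma-voom, halved counts, removal of each library's lowess trend with abundance (span 0.4), members with 50 or more counts, a replicate block and leaving out each library. Taking 1 member per host, or members clear of other exons, was added after seeing the data. Named members were the 5 with most counts per class, the 5 largest rises and falls among clearly separated members (average log2 CPM 0 or more), 4 opposite to their host each way, 4 not past the test with most counts, and the 3 on each side of the count minimum. The repeat word and the division of hosts into 5 parts were also added then. The fitting code was checked on counts drawn with known changes.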

Additional observations from a re-analysis of the deposited data

How the results depend on the processing

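No call of a member turned direction under any alternative run. With library size only, 32 members were higher, and after removal of the trend with abundance 107 were higher and 406 lower. With at least 1 CPM in 3 libraries, a filter that leaves 528 members to test, 413 were lower and 357 ratios to the host were lower. The difference in the share of counts was -0.148 percentage points over protein-coding counts and -0.155 without the member with most counts, and for same-strand members -0.103 and -0.113. Apart from the filter, the cause was not tested. With library size only, the log2 fold changes of Gm49502, Gm37416 and Gm36989 were -0.36, -0.10 and -0.36, each reversed. Replicate numbers did not pair the libraries: deviations of same-numbered libraries correlated at 0.00517, 0.00304 and -0.0234. With the replicate block 52 members were higher and 622 lower, and 35 ratios were higher and 536 lower. Few reads limit most members, whose median is 98 counts over 6 libraries.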
